A study of Mus musculus with 6 samples.

Results

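The genes described are those for the proteins of the cytosolic ribosome, chosen by their symbols (Rpl or Rps and a number, Rplp0 to Rplp2 and Rpsa, with a, l or x as the only letters allowed after a number). The pattern matched 80 of the 23306 rows of the count table: 49 genes of the large and 31 of the small subunit. Of these, 73 held enough counts to be tested (43 large, 30 small). RNA bound to tagged ribosomes of parvalbumin neurons, a class of fast-spiking inhibitory cells, had been pulled down from frontal cortex of Fxr1 conditional knockout (cKO) and wild type (WT) mice. The series holds 3 libraries per genotype. Numbered within each genotype by accession order, since the labels give no replicate number, cKO replicates 1 and 3 and WT replicates 2 and 3 are analysed here, with totals between 9696126 and 10301280 counts.

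All mice were male, of strain C57BL6, and of the PV-Cre::RiboTag line (genotype RPL22HA/WT), in which 1 of the Rpl22 alleles can carry a haemagglutinin tag and Cre is driven by the parvalbumin gene. In the cKO mice Fxr1 was deleted with the same PV-Cre. No age is given in the labels. The tag and the deletion both follow cells in which the parvalbumin gene is or was active, so the model covers these cells and not the whole cortex. The labels do not tie each library to an animal of its own, and the spread that the p-values rest on may thus be technical. With 2 libraries a genotype, the smallest two-sided p of an exact permutation test is 0.333.

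Fxr1 had 181 and 192 counts in cKO, against 954 and 1036 in WT, a log2 fold change of −2.45 (edgeR adjusted p = 1.77e-15). The difference was in the direction that the labels give. The parvalbumin neuron markers Pvalb, Gad1, Gad2, Slc32a1, Kcnc1, Erbb4 and Tac1 summed to 8869 and 8885 CPM (counts as scaled to the same total in each library) in cKO and 9173 and 9312 CPM in WT. Markers of excitatory neurons, astrocytes, oligodendrocytes, microglia and endothelium were also present, and none was at 0 in any library. Excitatory markers summed to 842 and 884 CPM in cKO and 881 and 804 CPM in WT. Astrocyte markers gave 514 and 596 CPM in cKO and 540 and 503 CPM in WT, and oligodendrocyte markers 269 and 371 CPM in cKO and 289 and 261 CPM in WT. The ribosomal RNA precursor Rn45s took 0.711% and 0.283% of counts in cKO, against 0.315% and 0.305% in WT: cKO replicate 1 stood apart.

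A ribosome is built from ribosomal RNA and a set of ribosomal proteins, most of which cells need in equal numbers. The large subunit joins amino acids and holds the tunnel through which the new protein leaves, and the small subunit reads the mRNA. Most ribosomal protein mRNAs in mammals begin with a run of pyrimidines (the terminal oligopyrimidine, or TOP, motif), through which the kinase complex mTORC1 and the RNA-binding protein LARP1 control their translation together. Their genes have left many processed pseudogenes, intronless copies of the mRNA that lie elsewhere in the genome.

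The starts of these genes are shown because of the run of pyrimidines described above. RefSeq promoter windows (250 bases before to 50 after the start, GRCm38.p6) were found for 60 of the 80 genes. Pyrimidine words were searched on the gene's own strand from 25 bases before to 50 after the start, and they may overlap each other. A word in this range need not be a TOP motif. The word CTCTTT occurred in 19 of the 60 genes (31.7%, against 3.30% of 27025 genes with a window). The word CTTTCC occurred in 18 (30%, against 4.09%). The word CTTTTC occurred in 9 (15%, against 3.08%). The word CTTTTT occurred in 3 (5%, against 2.56%). At least 1 of these 4 words lay in 35 of the 60 genes (58.3%), against 11.3% of all genes with a window. Below are 30 bases, 10 before the annotated start and 20 from it, of 4 genes with such words, in capitals, and of 3 genes whose 30 bases hold none. Rpl22 is among them as the tagged protein, and Rpl10 and Rps21 as genes with a low unadjusted p in the comparison of genotypes. In order they lie at chr4:86857348-86857377 (minus strand), chr7:4792955-4792984 (plus), chr16:33056472-33056501 (plus), chr11:114668570-114668599 (plus), chr4:152325716-152325745 (plus), chrX:74270806-74270835 (plus) and chr2:180257369-180257398 (plus).
Rps6: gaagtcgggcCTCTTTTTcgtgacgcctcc
Rpl28: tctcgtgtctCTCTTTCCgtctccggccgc
Rpl35a: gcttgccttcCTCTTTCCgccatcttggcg
Rpl38: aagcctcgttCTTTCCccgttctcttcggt
Rpl22: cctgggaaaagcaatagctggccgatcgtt
Rpl10: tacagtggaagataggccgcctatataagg
Rps21: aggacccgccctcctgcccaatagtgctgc
In Rps6, Rpl28, Rpl35a and Rpl38 the word begins at the annotated start itself, which is not typical. In other genes with a word in these 30 bases it began elsewhere, for example before the start in Rpl34 and Rpl35 and after it in Rpl13a and Rps12. Rpl35a also has annotated starts whose 30 bases hold no word. No match in the other 3 says only that these letters are not in these bases. Over the whole 300-base window and both strands, CCGGAAG, the core that Ets-family factors bind, occurred in 25 of 60 genes (41.7%), against 9.93% of all genes. GCCATNTT, the word that the factor YY1 binds, occurred in 11 (18.3%), against 6.96%.

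Members differed far more from each other than between genotypes. Per kilobase of exon in the principal GENCODE M21 transcript, the highest and the lowest tested gene differed 108-fold, and the 90th and the 10th percentile 7.01-fold. The highest level was that of Rplp1, an acidic protein of the stalk that recruits elongation factors, at 204 and 198 CPM per exonic kilobase in cKO and 207 and 187 in WT. Rpl4, which lines the exit tunnel, had 146 and 146 CPM per exonic kilobase in cKO and 151 and 155 in WT. Rpl19 (mean over the 4 libraries 142) and Rpl13a (138) overlapped in level, while Rplp1 lay above Rpl4, Rpl19 and Rpl13a in every library. The level did not divide the subunits: over all members the median was 36.6 CPM per exonic kilobase for the large and 34.9 for the small subunit.

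The lowest tested gene was Rps27l, a paralog of Rps27 that p53 induces, at 1.58 and 1.36 CPM per exonic kilobase in cKO and 2.27 and 2.14 in WT. Rps20 (mean 4.58), Rps16 (6.09), Rps25 (6.86) and Rpl39 (8.17) followed. The place of Rps20 depends on its long annotated transcript of 3706 bases, of which 357 are coding: per coding kilobase it ranked 48th of 80, against 72nd per exonic kilobase. Rpl41, which encodes a protein of 25 residues, ranked 4th per coding and 52nd per exonic kilobase. The exonic order had a Spearman correlation of 0.86 with the coding order and 0.87 with the order of CPM without length, over the 73 tested genes, which share the same libraries.

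**Figure D1:**
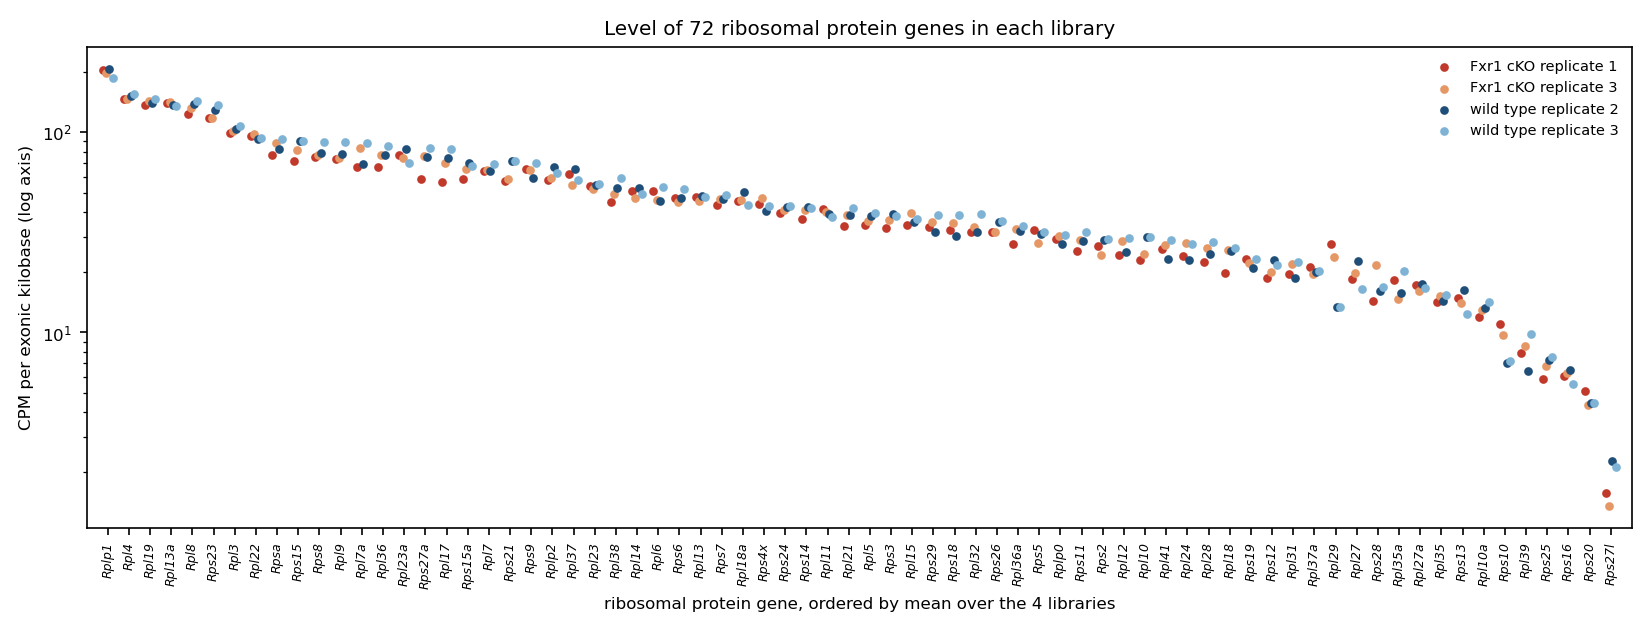
Level of 72 tested ribosomal protein genes in each library, as CPM per exonic kilobase on a log axis, ordered by the mean of the 4 libraries; red and orange points are cKO, blue points WT. Genes span a 108-fold range from Rplp1 to Rps27l, and the 4 points of most genes lie close together, with Rpl29 as the visible exception.

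The 7 untested genes were nearly without counts. Rpl26, which sits at the rim of the exit tunnel, and the testis-type paralog Rpl39l had 0 counts in all 4 libraries, which allows up to 0.0742 CPM over the libraries pooled (3 counts, counting error only). Rpl30 had 0 and 1 counts in cKO and 0 and 0 in WT, and the retrogene Rpl10l 0 and 0 in cKO and 1 and 0 in WT. Rpl34 had 0 and 2 counts in cKO and 1 and 0 in WT. Rps27, a zinc-finger protein of the small subunit, had 1 and 2 counts in cKO and 4 and 2 in WT. The muscle-type paralog Rpl3l had 2 and 3 counts in cKO and 7 and 5 in WT. Rpl26, Rpl30, Rpl34 and Rps27 encode core proteins that all cells use, so these genes are only listed at or near 0 here.

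Sequence sharing bears on all counts of the family. A median of 46.5% of the 50-base words of a member's transcript was found in no other annotated gene, and 44 of the 80 members had under 50% of their own. In all, 77 members shared a 50-base word with at least 1 annotated pseudogene, and 1086 pseudogenes did so with some member; 14 of these have a row in the table, and together those rows hold 117 counts over the 4 libraries. Of Rps27, 1.35% of words were its own, and 98.6% were shared with the gene Rps27rt. Rpl26 had 28.7% and Rpl30 23.6% of its own, but Rpl34 had 62.1%. Rpl9, with 6.68% of its own, was counted at 54.6 and 54.2 CPM in cKO and 57.4 and 66.4 CPM in WT. Of its words, 86.1% were shared with Rpl9-ps6, and whether its count holds reads of such copies was not tested. The pseudogene copies nearest to Rpl26 (Gm15772), Rpl30 (Gm12191) and Rpl34 (Rpl34-ps1) have rows of their own, at 0 counts in every library. The sources used here do not say how reads that match several places were counted.

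**Figure D2:**
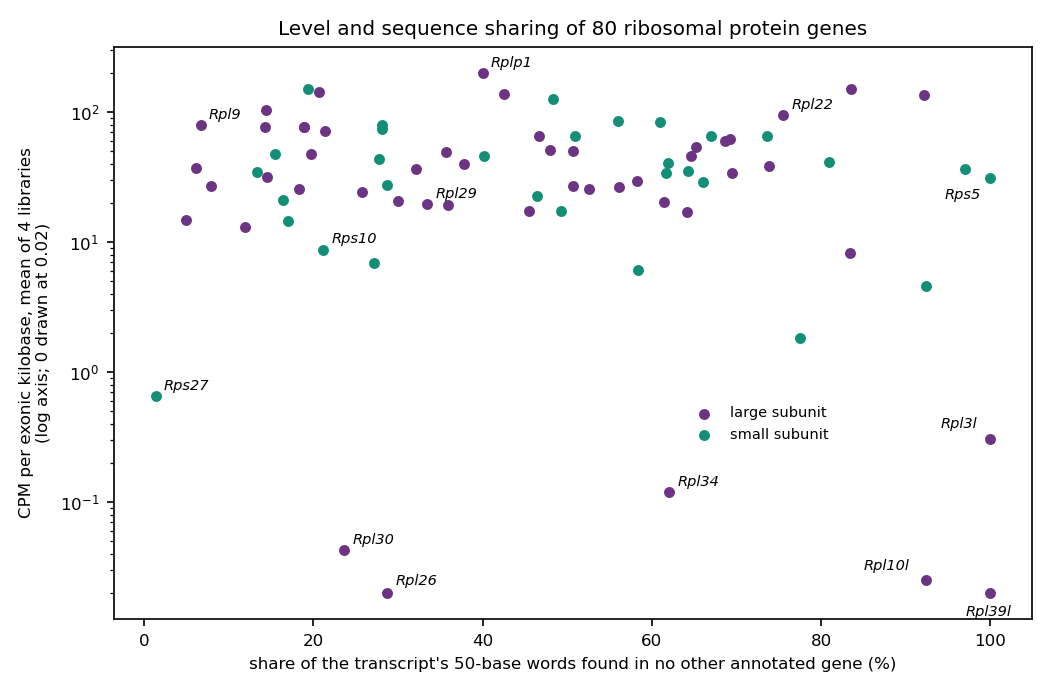
Share of each transcript's 50-base words found in no other annotated gene (x axis, percent) against mean level in CPM per exonic kilobase (y axis, log scale, 0 drawn at 0.02) for all 80 genes, large subunit in purple and small in green. The low genes lie at both ends of the x axis, from Rps27 at 1.35% to Rpl39l and Rpl3l at 100%, and Rpl9 at 6.68% stands among the higher ones.

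The first comparison asked whether the ribosomal protein mRNAs as a whole differed on ribosomes of cKO and WT neurons. They took 0.312% and 0.324% of all counts in cKO, against 0.328% and 0.342% in WT. The sums were 3116 and 3240 CPM in cKO and 3285 and 3419 CPM in WT, so both cKO libraries lay below both WT libraries, though cKO replicate 3 and WT replicate 2 were closer to each other than either was to its own replicate. In bulk samples fewer cells of a type and less RNA per cell cannot be told apart. The parvalbumin neuron markers also summed lower in both cKO libraries than in both WT libraries (values above), 6 of 7 had a log2 fold change below 0, and their median was −0.06. Of the markers of other cells, 5 of 6 lay above 0 for excitatory neurons (median 0.09), astrocytes (0.08) and oligodendrocytes (0.21) each. By the same measure, 4 of 5 tested microglial markers lay below 0 (−0.06) and endothelial markers were split 2 and 2 (−0.08). The 5 genes of the RNA quality list (Rn45s, Malat1, Meg3, Rmrp and Rpph1) had a median of 0.09, with 3 above 0. The part of these markers in the ribosomal protein values was not tested. Without ribosomal and small structural RNA in the total, the sums were 3141 and 3253 CPM in cKO and 3299 and 3433 CPM in WT.

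Gene by gene, 53 of the 73 tested genes had a log2 fold change (cKO over WT) below 0 and 20 above it. The median was −0.07, against −0.0015 over all 12449 tested genes, of which 50.4% lay below 0. At an edgeR quasi-likelihood p adjusted over all tested genes (Benjamini-Hochberg, threshold 0.05), 1 member was called higher and 0 lower. Of all members no other passed, and 4 of all tested genes (0.0321%) were called, 0.0161% higher and 0.0161% lower. At an unadjusted p of 0.05, 2 members were higher (all genes 1.61%) and 4 lower (all genes 1.61%). Both cKO libraries lay below both WT libraries for 27 members (37.0%, against 15.2% of all tested genes), and above them for 6 (8.22%, against 14.9%). The median standard error of a member's log2 fold change was 0.12, which is larger than the median shift. That error describes a single gene and not the median over members, for which the spread between libraries is given below. In size, 38 members lay within 0.1 and 62 within 0.2 of 0 on the log2 scale, and 6 lay beyond 0.3.

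The 2 subunits were both lower in median. Of the 43 large-subunit genes, 31 lay below 0, with a median of −0.05. Both cKO libraries lay below both WT libraries for 12 (27.9%, all genes 15.2%) and above them for 4 (all genes 14.9%). Of the 30 small-subunit genes, 22 lay below 0, with a median of −0.11. Both cKO libraries lay below both WT libraries for 15 (50%, all genes 15.2%) and above them for 2 (all genes 14.9%). The medians differed by 0.07 (large minus small). Large-subunit genes summed to 2060 and 2125 CPM in cKO and 2145 and 2216 CPM in WT, and small-subunit genes to 1056 and 1115 CPM in cKO and 1140 and 1202 CPM in WT. The large sum was 1.95 and 1.91 times the small sum in cKO, against 1.88 and 1.84 times in WT. Both cKO libraries were thus higher in this ratio, and the values did not overlap, but the step between the genotypes (1.91 against 1.88) was smaller than that between the replicates of either one.

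The size of the shift depended on the libraries compared. Relative to the WT mean, the median member lay at −0.07 in cKO replicate 1 and −0.06 in cKO replicate 3, and at −0.03 in WT replicate 2 and 0.03 in WT replicate 3. WT replicate 3 exceeded WT replicate 2 by a median of 0.07 on the log2 scale, with 57 of 73 genes higher, about the size of the median difference between the genotypes. Between the cKO libraries, replicate 3 exceeded replicate 1 by 0.04, with 45 of 73 genes higher. Without WT replicate 2 the median log2 fold change was −0.12, and without WT replicate 3 it was −0.04, with 45 of 73 genes below 0. The large-subunit median was −0.11 without WT replicate 2 and −0.03 without WT replicate 3, and the small-subunit median −0.06 without WT replicate 3. For small-subunit genes, cKO replicate 1 lay at −0.15 and cKO replicate 3 at −0.07, and without cKO replicate 1, the library with the most Rn45s, their median log2 fold change was −0.07. The part of Rn45s in these values was not tested.

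**Figure D3:**
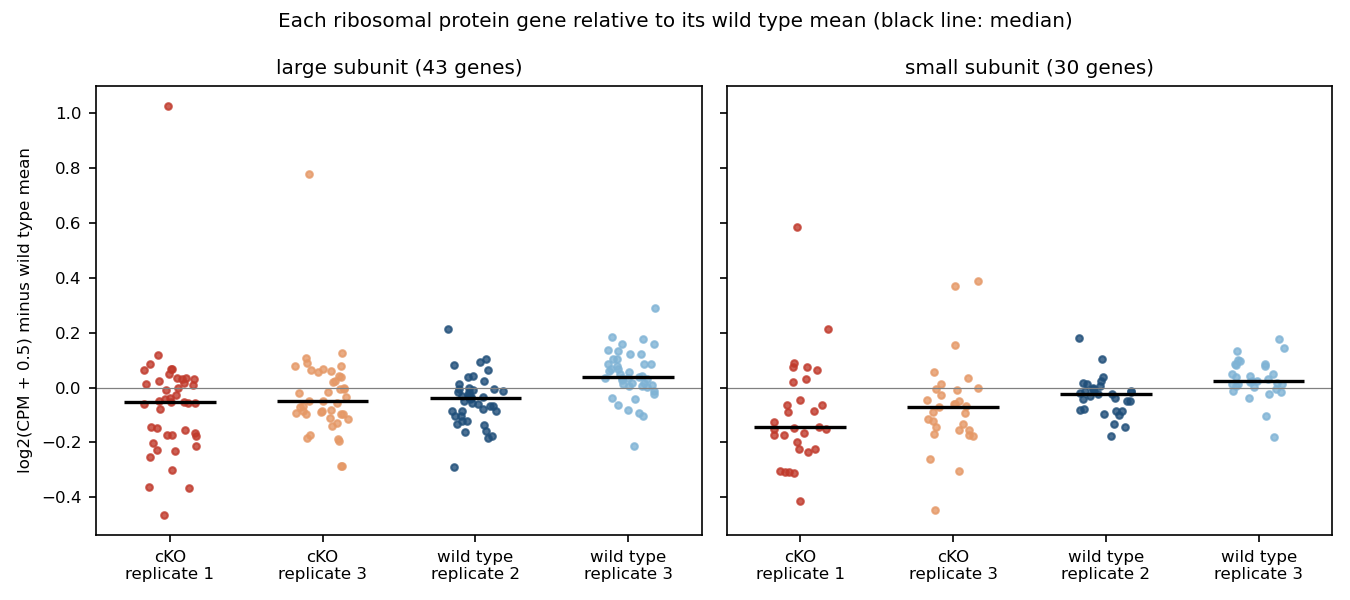
Log2(CPM + 0.5) of each tested gene minus its mean over the 2 WT libraries, per library, for the large (left) and the small subunit (right); black lines are medians. Medians in cKO lie at −0.05 and −0.05 (large) and −0.15 and −0.07 (small), against −0.04 and 0.04 (large) and −0.02 and 0.02 (small) in WT; the 2 highest points on the left are Rpl29 in the cKO libraries.

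Rpl29 was the only ribosomal protein gene that passed the test. It encodes a small basic protein on the outer surface of the large subunit, known also as a heparin-binding protein, and mice without it are viable but small. Rpl29 (chr9:106429454-106431568, plus strand) had 200 and 173 counts in cKO, against 92 and 98 in WT. In CPM scaled by TMM these were 19.9 and 16.7 in cKO and 9.44 and 9.58 in WT, a mean of 18.3 ± 2.25 against 9.51 ± 0.101 (SD, n = 2 each). Both cKO libraries stood far above both WT libraries, and the gap was wider than the spread within either genotype. Rpl29 was singled out with earlier results of these data known, a choice that favours a wide gap and close replicates. Rpl29 rose in cKO by a log2 fold change of 0.94 (SE 0.16, 95% interval 0.61 to 1.27), with an edgeR adjusted p of 0.0151, the 3rd smallest p of all 12449 tested genes. Without each library in turn, the log2 fold change of Rpl29 stayed between 0.81 and 1.06. Such fits leave 1 library in a genotype and cannot decide whether the call holds. The call was lost with library totals in place of TMM (adjusted p = 0.0563) and in a non-robust fit (0.0525). The call was also lost with limma voom (0.0868) and with DESeq2 (0.457). Log2 fold changes in these 4 fits were 0.93 to 0.94.

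What was counted as Rpl29 can come from many places. Rpl29 shared 50-base words with 84 annotated genes, 81 of them pseudogenes, and 33.4% of its words were found in no other gene. The gene that shared the most was Uimc1, which held 49.2% of the words of Rpl29. In the coding part only 42 of 431 words (9.74%) were its own, against 101 of 109 that begin before it and 78 of 121 that reach past it. Only pseudogenes were aligned to the coding part. The nearest of those aligned, the processed pseudogenes Gm13841, Gm6344 and Gm8210, each differed from Rpl29 at 3 of 480 coding bases (99.4% identity). Coding bases 337 to 456, counted from the first base of the start codon, show how alike they are. They are from GENCODE M21 transcripts (GRCm38), each on its own strand, and the 2 capitals mark the positions at which any copy differs in this stretch. Rpl29 lies at the place given above, Gm13841 at chr5:115801677-115802159 (minus strand), Gm6344 at chr13:55085777-55086259 (plus) and Gm8210 at chr1:43189156-43189638 (plus).
Rpl29: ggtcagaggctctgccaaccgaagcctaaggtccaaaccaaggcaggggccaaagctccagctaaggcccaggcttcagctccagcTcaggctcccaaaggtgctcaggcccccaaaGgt
Gm13841: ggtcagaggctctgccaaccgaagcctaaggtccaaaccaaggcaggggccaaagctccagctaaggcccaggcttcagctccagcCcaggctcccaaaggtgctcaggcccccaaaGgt
Gm6344: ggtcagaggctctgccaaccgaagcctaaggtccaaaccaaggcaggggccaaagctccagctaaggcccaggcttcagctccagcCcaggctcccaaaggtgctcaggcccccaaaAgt
Gm8210: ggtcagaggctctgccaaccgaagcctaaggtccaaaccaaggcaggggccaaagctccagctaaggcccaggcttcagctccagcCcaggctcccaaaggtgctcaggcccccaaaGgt
Gm13841 and Gm8210 differ from Rpl29 at 1 base of these 120 and Gm6344 at 2. At the first capital Rpl29 has T and each of these copies C, so a read across that base separates them. A read that covers no differing base cannot be told apart between the gene and the copy. Whether reads of the copies entered the Rpl29 count was not tested. Of the 81 pseudogenes, 3 have rows in the table. Gm10548 had 17 and 9 counts in cKO and 8 and 11 in WT, 4931440P22Rik had 7 and 4 in cKO and 1 and 5 in WT, and Gm8580 had 1 and 0 in cKO and 0 and 0 in WT. The groups overlapped for all 3, and their counts were far below the Rpl29 counts. The nearest copies Gm13841, Gm6344 and Gm8210 are not among them. These rows therefore cannot show whether reads of copies entered the Rpl29 count.

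Rpl22 is the protein that carries the tag, and its mRNA was measured in the same pull-down. It binds at the rim of the exit tunnel and is not needed for general translation in mice, where the paralog Rpl22l1 can take its place. Rpl22 (chr4:152325742-152334071, plus strand) had 460 and 479 counts in cKO, against 427 and 456 in WT. As TMM-scaled CPM these were 45.7 and 46.2 in cKO and 43.8 and 44.6 in WT, so both cKO libraries lay slightly above both WT libraries. The log2 fold change was 0.06 (SE 0.10, 95% interval −0.15 to 0.26; edgeR adjusted p = 0.998), and it stayed between 0.05 and 0.07 without any single library. Rpl22 ranked 9th of 80 per exonic and 15th per coding kilobase, and 75.5% of its 50-base words were its own. The count does not separate the tagged from the untagged allele. Rpl22l1, which the symbol pattern does not take in, had 53 and 29 counts in cKO and 42 and 44 in WT, overlapping groups with a log2 fold change of −0.10 (SE 0.29).

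**Figure D4:**
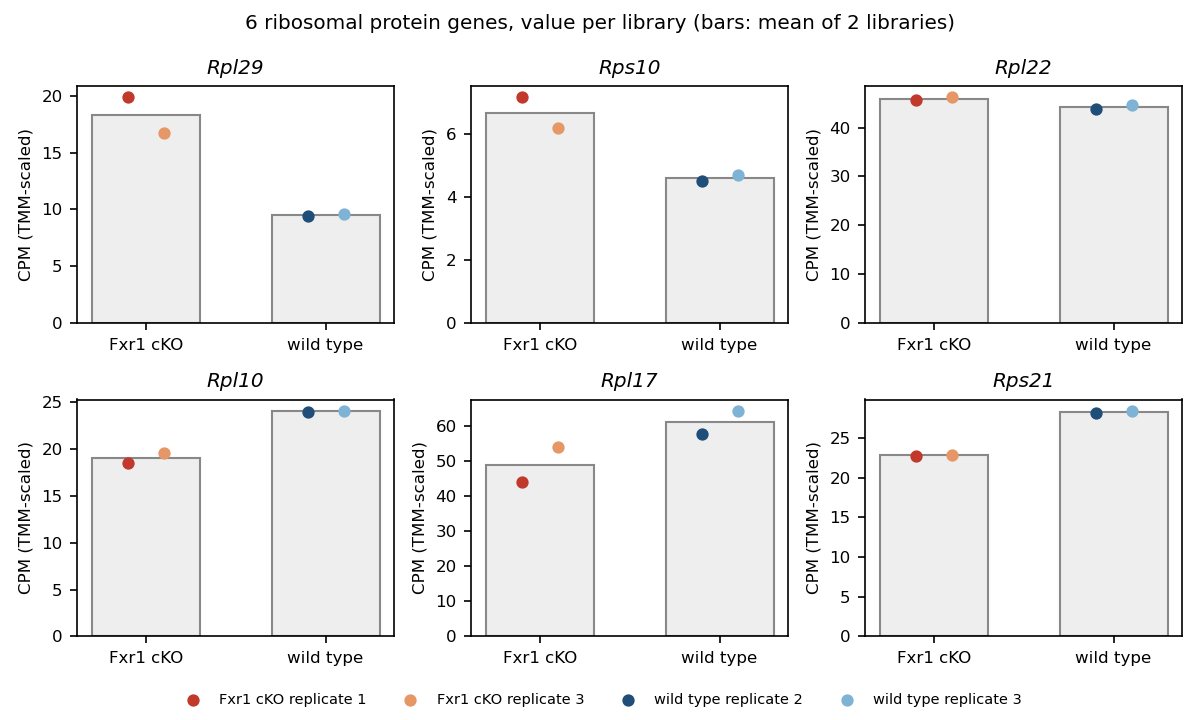
TMM-scaled CPM of 6 ribosomal protein genes per library (points) with the mean of the 2 libraries (bars), cKO left and WT right in each panel. Rpl29 had 19.9 and 16.7 CPM in cKO against 9.44 and 9.58 in WT, Rpl22 lay between 43.8 and 46.2 in all 4 libraries, and Rpl10, Rpl17 and Rps21 were lower in both cKO libraries.

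Of the other members, 5 had an unadjusted p under 0.05 and none of these passed after adjustment (edgeR adjusted p = 0.998 for each). Rps10, a small-subunit protein mutated in some patients with Diamond-Blackfan anaemia, had 72 and 64 counts in cKO and 44 and 48 in WT (log2 fold change 0.53, SE 0.23, unadjusted p = 0.0311). Its cKO libraries both lay above its WT libraries. Of its 50-base words 21.2% were its own, and 86.3% of its exonic bases overlap other annotated genes (Gm15420 and the read-through gene RPS10-NUDT3), so its count is uncertain. Rpl17, which lines the exit tunnel, had 443 and 559 counts in cKO and 562 and 658 in WT (log2 fold change −0.32, SE 0.11, unadjusted p = 0.00613). The higher cKO count and the lower WT count of Rpl17 were nearly equal before scaling, and 53.9 and 57.7 CPM after it. Rpl10, which joins late in assembly and lets the subunits come together, had 186 and 203 counts in cKO and 233 and 246 in WT (log2 fold change −0.33, SE 0.13, unadjusted p = 0.0175). Rps21 had 229 and 237 counts in cKO and 275 and 291 in WT (log2 fold change −0.31, SE 0.12, unadjusted p = 0.0167). Rpl10 and Rps21 had clear gaps between the groups and replicates that lay close together, a pattern that picking genes by a low unadjusted p favours. Of their 50-base words, Rpl10 had 7.87%, Rpl17 21.3% and Rps21 73.6% of its own. The counts of Rpl10 and Rpl17 are thus uncertain, like that of Rps10. Rps15, whose tail reaches toward the decoding site, had 365 and 419 counts in cKO and 436 and 465 in WT (log2 fold change −0.23, SE 0.10, unadjusted p = 0.0342).

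The remaining members at either end of the list did not reach that p. On the high side stood Rps28 (log2 fold change 0.13), Rps4x (0.12), Rps20 (0.09), Rpl11 (0.08) and Rpl13a (0.06), of which Rps4x, Rpl11 and Rpl13a (59.3% of its exonic bases overlapped by other genes) had both cKO libraries above both WT libraries. Rps28 had 57 and 88 counts in cKO and 61 and 68 in WT, so its cKO libraries enclosed the WT ones, and without cKO replicate 3 its log2 fold change was −0.19. Rps20 turned to −0.05 without cKO replicate 1. On the low side, Rps27l had 8 and 7 counts in cKO and 11 and 11 in WT (log2 fold change −0.58, SE 0.56), too few to place it. Rpl38, known in mouse embryos for its role in translating Hox mRNAs, had 165 and 184 counts in cKO and 186 and 221 in WT (−0.25, SE 0.14). Rps27a, made as a fusion with ubiquitin, had 380 and 500 counts in cKO and 464 and 549 in WT (−0.24, SE 0.11), with overlapping counts. Rps25, which some viral internal ribosome entry sites need, had 76 and 90 in cKO and 90 and 99 in WT (−0.22, SE 0.19).

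**Figure D5:**
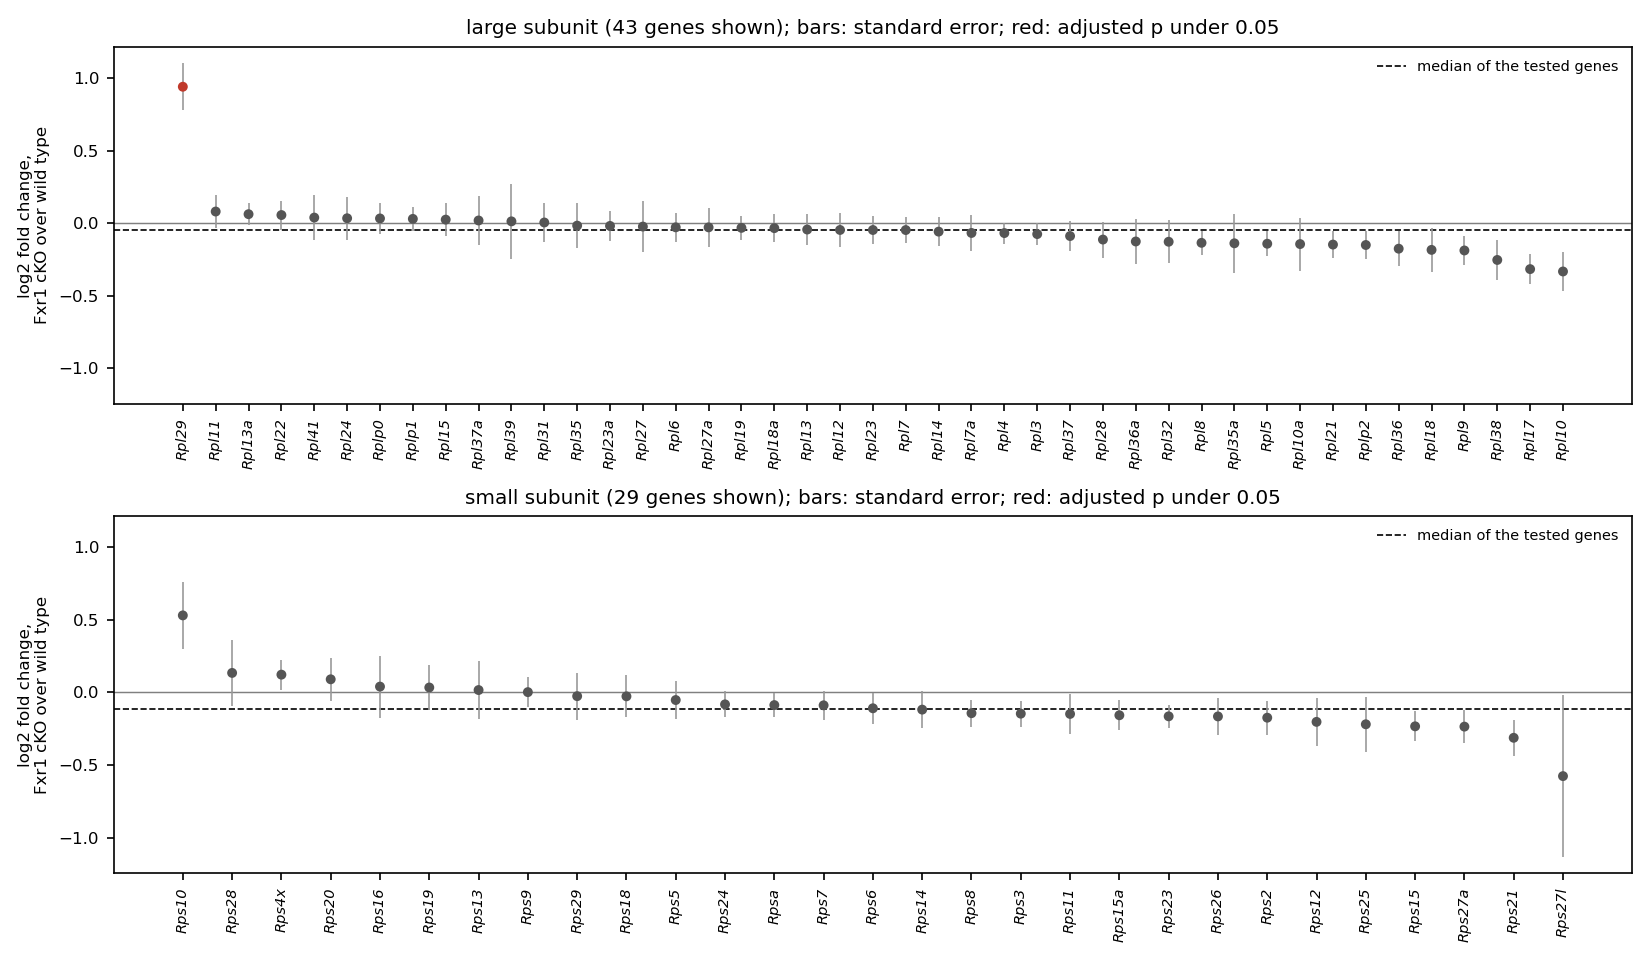
Log2 fold change (cKO over WT) of tested genes with their standard errors, ordered by size, for the large (top) and the small subunit (bottom); the dashed line is the median of all tested genes of the subunit and red marks an adjusted p under 0.05. Rpl29 at 0.94 stands alone at the high end, Rps10 at 0.53 follows, and most others lie between −0.2 and 0.2.

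By place on the ribosome, most groups held genes on both sides of 0. In the stalk, Rplp0 (log2 fold change 0.03), Rplp1 (0.03) and Rpl12 (−0.05) lay near 0. The remaining stalk protein Rplp2 had 563 and 586 counts in cKO and 627 and 619 in WT (−0.15, SE 0.09). The 2 proteins that bind 5S ribosomal RNA and can restrain Mdm2 went opposite ways, with Rpl5 at −0.14 and Rpl11 at 0.08. Along the tunnel wall Rpl17 had the lowest value, Rpl4 lay at −0.07 and Rpl39 at 0.01. At the rim of the tunnel exit, Rpl19 lay at −0.03, Rpl23a at −0.02, Rpl35 at −0.02 and Rpl31 at 0.0053, beside Rpl17 and Rpl22. Rplp0, Rplp1, Rpl12, Rpl39, Rpl19, Rpl23a, Rpl35 and Rpl31 changed sign when a single library was left out. None of these groups' genes but Rpl17 had an unadjusted p under 0.05.

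On the small subunit, Rps2 (−0.17), Rps3 (−0.15) and Rps9 (0.0025) line the mRNA entry. The mRNA exit is formed by Rpsa (−0.09), Rps14 (−0.12), Rps26 (−0.17) and Rps28. Rps2, Rps3, Rps14 and Rps26 had both cKO libraries below both WT libraries. Rps6, the substrate of S6 kinase, had 417 and 406 counts in cKO and 400 and 469 in WT (−0.11, SE 0.10), with overlapping groups. Of 8 members mutated in Diamond-Blackfan anaemia, 5 lay below 0, with a median of −0.09. They were Rps24 (−0.08), Rps7 (−0.09), Rps26, Rpl5 and Rpl35a (−0.14), while Rps19 (0.03), Rps10 and Rpl11 lay above 0. Rps9, Rpsa, Rps19, Rps28 and Rpl35a changed sign when a single library was left out.

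Genes with much and with little sequence of their own had similar medians. Of the 32 tested members with at least 50% of their own 50-base words, 24 lay below 0, with a median log2 fold change of −0.07. Of the 41 with less, 29 lay below 0, also with a median of −0.07. Across the 73 genes the Spearman correlation of log2 fold change with that share was 0.04, with exonic length 0.08 and with GC content 0.10; the genes share their libraries and are not independent. The 4 X-linked members Rpl10, Rpl36a, Rpl39 and Rps4x were split, 2 below 0.

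Related genes were counted for comparison. Ribosomal proteins outside the symbol pattern (Fau, Rps3a1, Rpl36al, Rpl22l1, Rpl7l1 and Rack1, listed under its older symbol Gnb2l1) had a median log2 fold change of −0.05, 4 of 6 below 0, and 0 called. Rack1 had 592 and 644 counts in cKO and 618 and 651 in WT (−0.07, SE 0.09), and Fau 620 and 505 in cKO and 543 and 548 in WT (0.01, SE 0.11). TOP mRNAs that encode no ribosomal protein, 17 in number, had a median of −0.01, with 11 below 0 and 0 called. Among them Hnrnpa1, an RNA-binding protein gene, had 39 and 49 counts in cKO and 18 and 16 in WT (log2 fold change 1.33, SE 0.33; edgeR adjusted p = 0.385). Its cKO counts both stood above its WT counts, at a low level.

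Regulators and builders of the ribosome gave medians near 0. Of 12 tested genes of mTORC1 and LARP1, 7 lay below 0 (median −0.02), with Mtor at −0.12 and Larp1 at −0.02. Of 21 ribosome assembly genes, 11 lay below 0 (median −0.00047). Of 75 tested mitochondrial ribosomal protein genes, 43 lay below 0 (median −0.02), and the cKO libraries both lay below both WT libraries for 10 (13.3%, all genes 15.2%) and above them for 9 (12%, all genes 14.9%). None of these 3 lists held a called gene by edgeR, and none had a member with an unadjusted p under 0.05.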

How the data were processed

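RiboTag RNA was made into stranded total RNA libraries, per the labels' protocols. STAR and the build mm10 are named in the submitters' processing notes. The counter, annotation, strand setting and handling of multi-mapping reads are not given there or in the labels. The deposited table holds the authors' raw counts by gene symbol. Of the table's columns, 4 matched the title of a single sample; 2 were not used, because both match WT replicate 1 and neither could be placed. The design foresaw 3 libraries against 3.

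Tests used edgeR 4.0.16 in R 4.3.3 (TMM, filterByExpr, robust quasi-likelihood fit, Benjamini-Hochberg over 12449 genes, threshold 0.05) after the code was tested on simulated data. Standard errors are derived from the quasi-likelihood F statistic. No libraries agreed within sampling noise (chi-square per degree of freedom 3.02 to 6.35). The highest value was that of the 2 cKO libraries, and the lowest that of cKO replicate 3 and WT replicate 3. The 2 WT libraries gave 3.68. By this measure the libraries did not group by genotype. Sums and levels per kilobase use library totals, other CPM use TMM. Genes were placed, and word sharing counted, in GENCODE M21. Members and lists were chosen with earlier results of these data known. Named were Fxr1, Rpl29, Rpl22, the 8 highest and 8 lowest log2 fold changes, members with unadjusted p under 0.05, the 5 highest and 5 lowest levels, paralogs, structural groups and lists; Rpl9, Rpl28, Rpl41 and pseudogenes were picked as examples. Some genes are not reported here. Alternatives were DESeq2 1.42.0, limma 3.58.1 voom, other scalings, filters and fits, and leaving out each library.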

Additional observations from a re-analysis of the deposited data

How the results depend on the processing

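The number of members called higher was 0 instead of 1 with library totals, DESeq2, limma voom and a non-robust fit, where Rpl29 had log2 fold changes of 0.94, 0.94, 0.93 and 0.94 (adjusted p = 0.0563, 0.457, 0.0868 and 0.0525). It was 1 with DESeq2 size factors in edgeR, no count filter, a filter of 5 CPM, and without ribosomal and small structural RNA. The number called lower was 0 under every alternative that kept all libraries. Fits without a library leave 1 in a genotype, so their calls are not used. Leaving out each library in turn, the median log2 fold change ranged from −0.12 to −0.039 over all members, from −0.11 to −0.033 for the large and from −0.15 to −0.063 for the small subunit. The number of members below 0 ranged from 45 to 58. Of 41 other named members, 25 kept their sign under each alternative run for them, and 16 changed it without some library: Rpl12 (−0.16 to 0.084), Rpl19 (−0.069 to 0.011), Rpl23a (−0.12 to 0.093), Rpl31 (−0.12 to 0.15), Rpl35 (−0.074 to 0.049), Rpl35a (−0.32 to 0.072), Rpl39 (−0.26 to 0.37), Rpl41 (−0.11 to 0.22), Rplp0 (−0.046 to 0.12), Rplp1 (−0.033 to 0.099), Rps16 (−0.067 to 0.16), Rps19 (−0.043 to 0.12), Rps20 (−0.049 to 0.22), Rps28 (−0.19 to 0.39), Rps9 (−0.12 to 0.15) and Rpsa (−0.18 to 0.013). Rps10, Rps27l and Rpl39 have no value under the filter of 5 CPM, which they did not pass. The cause was not tested. The summed difference (cKO minus WT) was −173.8 CPM, −168.9 CPM without ribosomal and small structural RNA in the total and −162.9 CPM without the most abundant member, Rpl4. No paired analysis was possible because the labels number no replicates and the numbers used here, in accession order, pair no libraries. With a library left out, 1 residual degree of freedom remains and the lone library is assumed to vary like the other genotype. For a single member, a shift of 0.1 on the log2 scale lay below the median standard error (0.12). That error does not apply to the median over members.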
